A study of Mus musculus with 6 samples.

Results

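The formyl peptide receptor cluster was measured in mouse leukemia cells that carry the MLL-AF10 fusion, with and without an inhibitor of the IKK kinases. Of 7 receptor genes looked for (Fpr1, Fpr2, Fpr3, Fpr-rs3, Fpr-rs4, Fpr-rs6 and Fpr-rs7), the platform annotation named a probe set for 4, which are Fpr-rs3, Fpr-rs4, Fpr-rs6 and Fpr-rs7. These 4 probe sets, 1 per gene, are the members described here, among 19938 genes with a symbol of their own and 35512 probe sets on the array. The other 3 genes, Fpr1, Fpr2 and Fpr3, are not analysed here. The cluster was selected on the measured difference between inhibitor and vehicle, which was already known. The differences of the 4 members are therefore given as a description, without a test.

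Formyl peptide receptors are G protein-coupled receptors that sense peptides beginning with formyl-methionine, which are released by bacteria and by damaged mitochondria. On neutrophils and monocytes they direct migration towards the source and trigger the release of granules and of reactive oxygen. Fpr1 and Fpr2 are the family's main leukocyte receptors, and Fpr2 also binds annexin A1, serum amyloid A and cathelicidin peptides. In the mouse the family has been enlarged by gene duplication. Several of the Fpr-rs genes are best known as receptors of sensory neurons in the vomeronasal organ.

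All cells belonged to the line called MLL-AF10 and were grown in RPMI with fetal bovine serum and WEHI-conditioned medium, a source of interleukin 3. The vehicle group and the group given 0.5 µM of the IKK inhibitor had 3 samples each, every sample read on an array of its own. IKK kinases release NF-kB transcription factors from their inhibitors. The sources used here give neither the compound's name nor the length of treatment. They do not say whether the samples of a group were separate cultures, so the spread behind each p-value may be technical only. Values are probe set intensities on a linear scale, and array medians lay between 112 and 124. The number of arrays limits the precision. Differences are inhibitor minus vehicle on the log2 scale, after values below 16 were raised to 16. The 1062 probe sets at that floor on every array were left out. With limma, 2533 of 34450 probe sets tested (7.35%) had an adjusted p under 0.05 (Benjamini-Hochberg). Of these 1420 (4.12% of those tested) were higher and 1113 (3.23%) lower. Of the 9 myeloid and leukemic progenitor markers, vehicle means ran from 75.8 for Flt3, which lay below the array medians, over 241 for Cd34, 358 for Kit and 1725 for Ptprc (CD45) to 3305 for Myb.

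The start of the coding sequence is shown for the 4 members because the genes are much alike in this stretch. Where genes are alike, RNA of 1 gene may bind probes designed for another. The rest of the coding sequence was not compared. Each run holds the first 50 bases of the RefSeq gene model (build GRCm38.p6), read 5′ to 3′ on the gene's own strand. Each begins with ATG, and each gene model's length is a multiple of 3, so these models hold coding sequence without untranslated regions. Capitals mark the bases that differ from Fpr-rs4.
Fpr-rs4: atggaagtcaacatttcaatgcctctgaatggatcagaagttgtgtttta
Fpr-rs7: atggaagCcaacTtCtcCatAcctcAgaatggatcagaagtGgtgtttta
Fpr-rs6: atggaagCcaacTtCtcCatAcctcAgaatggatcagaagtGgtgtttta
Fpr-rs3: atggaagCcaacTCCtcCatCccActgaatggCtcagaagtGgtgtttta
The runs lie at chr17:18021733-18021782 (plus strand) for Fpr-rs4, and on the minus strand at chr17:20114177-20114226 for Fpr-rs7, chr17:20183048-20183097 for Fpr-rs6 and chr17:20624828-20624877 for Fpr-rs3.

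Fpr-rs6 and Fpr-rs7 had the same base at all 50 positions. In these 50 bases Fpr-rs4 shared the fewest with the other members, 43 of 50 with Fpr-rs6 and with Fpr-rs7 and 41 with Fpr-rs3, while Fpr-rs3 shared 45 with each of the other pair. The likeness went on upstream of the coding start but was weaker there. Over the 250 bases before it, aligned end to end, Fpr-rs6 and Fpr-rs7 were 88.9% identical, and Fpr-rs4 was 69.8% identical to Fpr-rs7, 68.9% to Fpr-rs6 and 66.0% to Fpr-rs3. There Fpr-rs3 was 67.6% identical to Fpr-rs6 and 66.8% to Fpr-rs7, so upstream it was Fpr-rs3 that had the lowest values of the 4 members. For scale, the same alignment gave 44.3% for Fpr-rs4 with Fpr1 and 51.5% with Fpr3, whose gene models do not begin with ATG. The corresponding window of Fpr3, which is not analysed here, is shown from its first ATG because it shows how near another gene of the family can be.
Fpr3: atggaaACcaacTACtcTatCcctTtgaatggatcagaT
This run of 39 bases (chr17:17970469-17970507, plus strand) matched Fpr-rs4 at 30 positions, and Fpr-rs3, Fpr-rs6 and Fpr-rs7 at 32 positions each. The sequences and positions of the array's own probes were not used here. How far a probe set of this cluster reads its relatives was not tested, and each value is uncertain to that extent. The values of the 4 members themselves were not copies of each other or of any other row of the table.

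Of the 4 members, Fpr-rs4 was several times brighter with the IKK inhibitor, and Fpr-rs3, Fpr-rs6 and Fpr-rs7 were about equally bright with and without it. Fpr-rs4 (probe set 10442104) read 25.01, 21.7 and 34.4 in the vehicle samples and 169, 170.2 and 197 in the inhibitor samples. All 3 inhibitor values lay far above all 3 vehicle values, and the groups did not overlap. The means were 27.02 ± 6.56 and 179 ± 16.04 (SD, n = 3 each), a log2 difference of 2.75 ± 0.17 (SE), or 6.72-fold with a 95% interval of 5.01 to 9.02. Of 34450 probe sets, 18 (0.0522%) were at least 4-fold higher with the inhibitor, and Fpr-rs4 had the second highest difference.

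Fpr-rs4 was dim in vehicle samples. Of all probe sets on the array, 11.2% had a lower vehicle mean, against 59.8% with a lower mean among the inhibitor samples. The table holds no detection calls, so it is not known whether the vehicle values lay above background. Among the 8810 probe sets with a vehicle mean between 16 and 64, 9 (0.102%) were at least 4-fold higher with the inhibitor. The choice of floor moved the value because vehicle intensities lay near it. The log2 difference was 2.44 with a floor of 32 and 1.48 with a floor of 64, above every vehicle value. Leaving out each array in turn gave 2.60 to 2.94, the highest without vehicle replicate 3, the brightest vehicle sample.

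**Figure D1:**
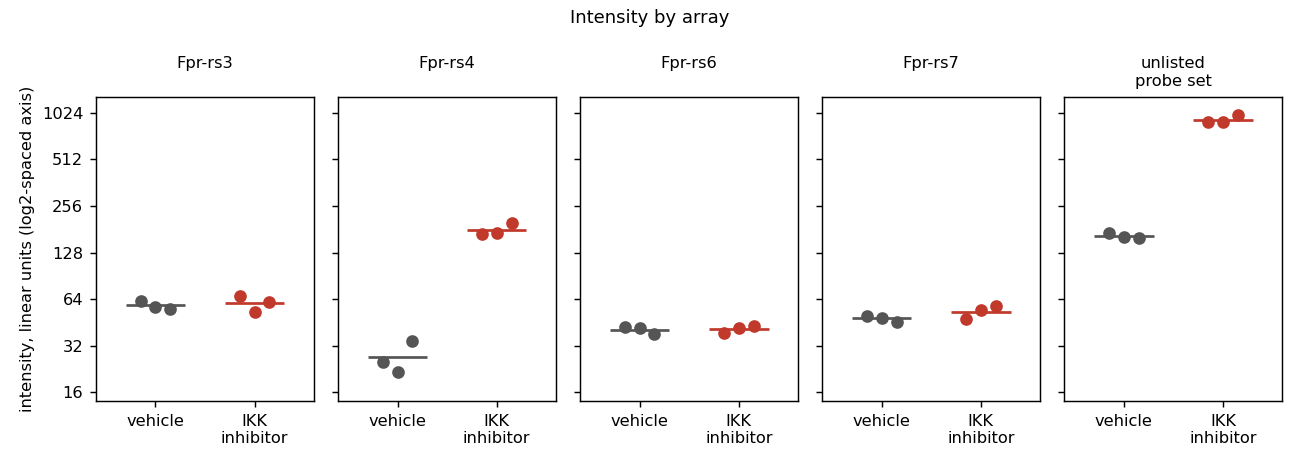
Intensity of each probe set in each array, on a log2-spaced axis, with a point per sample and a line at the group mean (grey, 3 vehicle samples; red, 3 inhibitor samples). Fpr-rs4 rests between 21.7 and 34.4 with vehicle and between 169 and 197 with the inhibitor, while the groups overlap for Fpr-rs3, Fpr-rs6 and Fpr-rs7; the last panel is the unlisted probe set in the row before Fpr-rs4.

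Fpr-rs7 (probe set 10448146) read 50.03, 48.7 and 45.6 with vehicle and 47.5, 54.3 and 57.5 with the inhibitor. The lowest inhibitor value lay among the vehicle values, so the groups overlapped. The means were 48.1 ± 2.25 and 53.1 ± 5.13 (SD, n = 3 each), and the log2 difference was 0.14 (95% interval -0.07 to 0.35).

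Fpr-rs6 (probe set 10448148), the gene whose first 50 coding bases equal those of Fpr-rs7, read 42.6, 41.5 and 38.0 with vehicle and 38.5, 41.8 and 42.8 with the inhibitor. Both groups covered nearly the same range. The means were 40.7 ± 2.42 and 41.0 ± 2.29 (SD, n = 3 each), with a log2 difference of 0.01 (95% interval -0.16 to 0.19). Its sign turned with the scaling of the arrays, to -0.01 with quantile normalization and -0.02 with each array centred on its median.

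Fpr-rs3 (probe set 10448168) read 62.7, 57.2 and 55.4 with vehicle and 66.9, 52.9 and 61.5 with the inhibitor. The inhibitor samples held both the highest and the lowest value. The means were 58.5 ± 3.80 and 60.5 ± 7.06 (SD, n = 3 each), and the log2 difference was 0.04 (95% interval -0.20 to 0.29).

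The intervals of these 3 members reached no higher than 1.14-fold for Fpr-rs6, 1.22-fold for Fpr-rs3 and 1.27-fold for Fpr-rs7 with a floor of 16. All 3 were dim in both groups. Of all probe sets, 18.5% had a lower vehicle mean than Fpr-rs6, 22.3% than Fpr-rs7 and 27.9% than Fpr-rs3. Among the inhibitor samples these shares were 18.2%, 24.5% and 28.3%. Without detection calls these values may be background, so the intervals bound the intensities and not the RNA. Relative to the vehicle mean of the same probe set, the inhibitor samples lay 2.67, 2.68 and 2.89 higher for Fpr-rs4 on the log2 scale. For Fpr-rs7 the same 3 samples lay at -0.02, 0.17 and 0.26, for Fpr-rs6 at -0.08, 0.04 and 0.08 and for Fpr-rs3 at 0.20, -0.14 and 0.07. Inhibitor replicate 3 alone lay above the vehicle mean for all 4 members. The median log2 difference of the 4 members was 0.09, beside 0.01 for all probe sets tested. The groups did not overlap for 1 of the 4 members, and this was so for 28.3% of all probe sets, so that the count itself does not set the cluster apart.

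**Figure D2:**
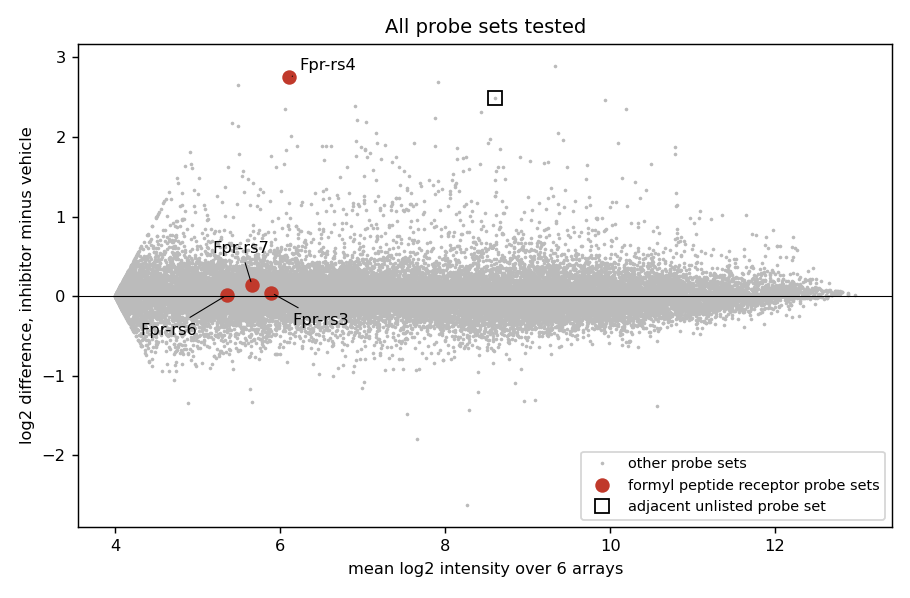
Log2 difference, inhibitor minus vehicle, against mean log2 intensity over the 6 arrays for the 34450 probe sets tested (grey), with the 4 receptor probe sets in red and the unlisted probe set as an open square. Fpr-rs4 is at 2.75, above nearly all other probe sets, and Fpr-rs3, Fpr-rs6 and Fpr-rs7 are within 0.14 of 0.

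The row before Fpr-rs4 in the deposited table, probe set 10442098, is not listed in the platform annotation. It was therefore not counted as a member and is given no gene name. It was looked at because its value had been seen. It read 171, 161 and 159 with vehicle and 889.9, 885 and 984 with the inhibitor. The groups did not overlap, and all 3 inhibitor values were far above the vehicle values. The means were 164 ± 6.58 and 919.8 ± 55.9 (SD, n = 3 each), a log2 difference of 2.49 ± 0.07 (SE), or 5.61-fold (95% interval 5.02 to 6.27). It was the fifth highest of the 34450 differences, and at this brightness floors up to 64 did not move it.

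**Figure D3:**
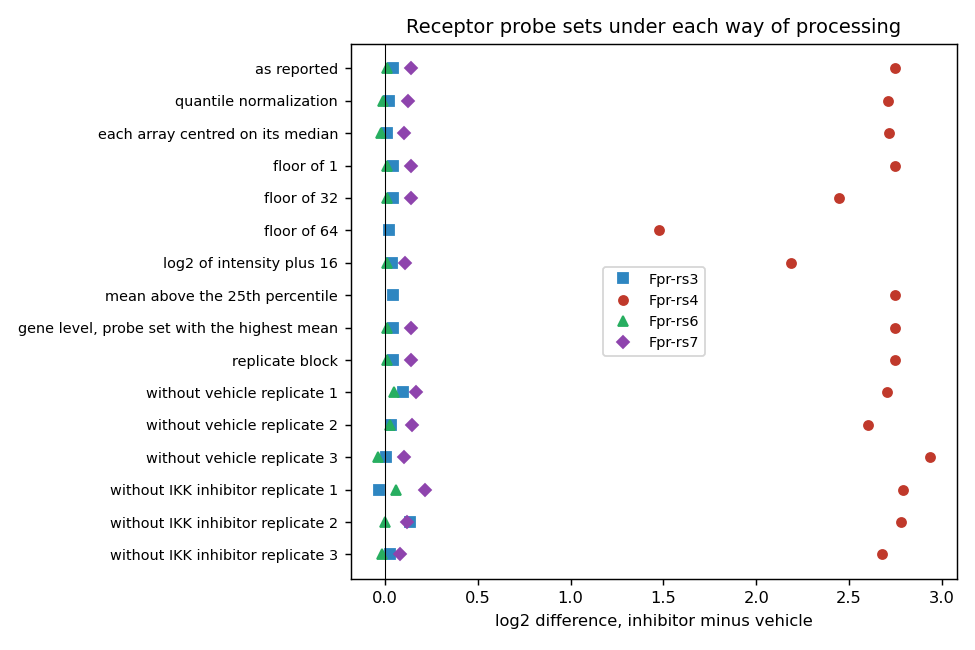
Log2 difference, inhibitor minus vehicle, of the 4 receptor probe sets (symbols) as reported and under other ways of processing (rows). In the rows shown, a missing symbol means that the probe set was removed by that floor or filter. The filter above the median intensity, which removed all 4, has no row. The intensity trend with robust prior and the array weights, for which these differences were not computed, have none either. Fpr-rs4 is between 1.48 and 2.94 in every row, and the other 3 members are between -0.04 and 0.22.

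In RefSeq's order on chromosome 17 the family starts with Fpr1, Fpr2, Fpr3 and Fpr-rs4 and ends with Fpr-rs7, Fpr-rs6 and Fpr-rs3. Between Fpr1 and Fpr-rs3 lie 24 other protein-coding genes, of which 21 are vomeronasal type 2 receptors. No gene measured next to the cluster passed the test as reported, and 1, Riok2, did under another prior. Of the 8 nearest named protein-coding genes on each side, 13 of 16 were measured. With limma 0 of these 13 passed the adjusted p of 0.05, against 9.21% of all 19847 genes, and 1 had an unadjusted p under 0.05. Most were dim, and only 2 of the 13 remained among probe sets with a mean above the median. With so few genes, most of them dim, the count cannot tell whether the neighbours differed from other genes. Their log2 differences ran from -0.34 for the vomeronasal receptor gene Vmn1r226 to 0.14 for Vmn2r90, with a median of 0.03, beside 0.01 for all genes. Has1, which encodes a hyaluronan synthase and is the nearest named gene before Fpr1, had mean intensities of 81.8 ± 7.41 and 83.8 ± 6.74 (SD, n = 3 each). Riok2, a kinase gene of ribosome assembly, was at 1073 with vehicle and 905.6 with the inhibitor (limma adjusted p = 0.15), and passed as lower under a robust prior with an intensity trend (0.0481).

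Other chemoattractant receptors, many of which signal through inhibitory G proteins as the formyl peptide receptors do, rose in part. Of 13 measured, 4 were higher and none lower, with a median log2 difference of 0.16. This was 30.8% called, beside 9.21% of all genes, of which 5.17% were higher and 4.04% lower. The 9.21% covers dim genes too, here and in the lists below. Among probe sets above the median intensity, 4480 of 17756 were called, and 5 of 10 of these receptors were higher. The lists were chosen with earlier results of these data known, so their shares are a description only. C3ar1, the receptor for complement fragment C3a, read 84.0, 95.7 and 98.1 with vehicle and 296, 328 and 310.0 with the inhibitor. All 3 inhibitor values were higher, with a log2 difference of 1.75 ± 0.08 (SE). Ccr1, a receptor for inflammatory chemokines, rose from 63.1 ± 3.65 to 177 ± 8.47 (SD, n = 3 each), by 1.49 ± 0.07 (SE) on the log2 scale. C5ar1, the receptor for complement fragment C5a and among the closest relatives of the formyl peptide receptors, rose from 646 ± 13.4 to 1273 ± 62.0, by 0.98 ± 0.06. The limma adjusted p was 0.000413 for C3ar1, 0.000408 for Ccr1 and 0.000807 for C5ar1. The receptor gene for platelet-activating factor, Ptafr, rose by 0.38 (limma adjusted p = 0.00869). This call was lost without inhibitor replicate 1 (0.0516), with median centring of the arrays (0.0553) and with the replicate number as a block (0.0627). The members that did not pass included Cmklr1, the chemerin receptor (-0.04), Gpr33 (-0.01), the monocyte chemokine receptor gene Ccr2 (-0.05) and the neutrophil chemokine receptor gene Cxcr2 (0.27).

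Genes for ligands of the receptors rose in part. Of 13 ligand and ligand-processing genes measured, 4 were higher and none lower (30.8% called, beside 9.21% of all genes). The median log2 difference was 0.18, beside 0.01 for all genes. Anxa1, which encodes annexin A1, an anti-inflammatory ligand of Fpr2, read 159, 177 and 176 with vehicle and 410.2, 423 and 412 with the inhibitor. The groups were well apart, with a log2 difference of 1.28 ± 0.06 (SE) and a limma adjusted p of 0.000429. The serum amyloid gene Saa3 rose from 2675 ± 134 to 4546 ± 112 (SD, n = 3 each), by 0.77 ± 0.06 (SE), while Saa2 (0.15) and Saa1 (-0.29), near-identical to each other and uncertain for that reason, did not pass. Camp, which encodes the cathelicidin CRAMP, rose by 0.66, and Plaur, the urokinase receptor gene, whose cleaved product acts on formyl peptide receptors, by 0.60. The limma adjusted p of Camp was 0.0134, and 0.0675, 0.0684 and 0.0548 without vehicle replicates 2 and 3 and inhibitor replicate 3. With the replicate number as a block it was 0.0790. The adjusted p of Plaur was 0.0121, and 0.0630 without vehicle replicate 3 and 0.0536 without inhibitor replicate 1. Plaur did not pass with the block either. Ctsg, which encodes cathepsin G, a granule protease and ligand of Fpr1, was level at 4918 ± 150.3 and 4896 ± 178 (SD, n = 3 each). Mtfmt, the enzyme that formylates the initiator methionine in mitochondria, was at 748 and 578 and did not pass (limma adjusted p = 0.142), but passed as lower under a robust prior with an intensity trend and under array weights (0.0493 and 0.0449).

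**Figure D4:**
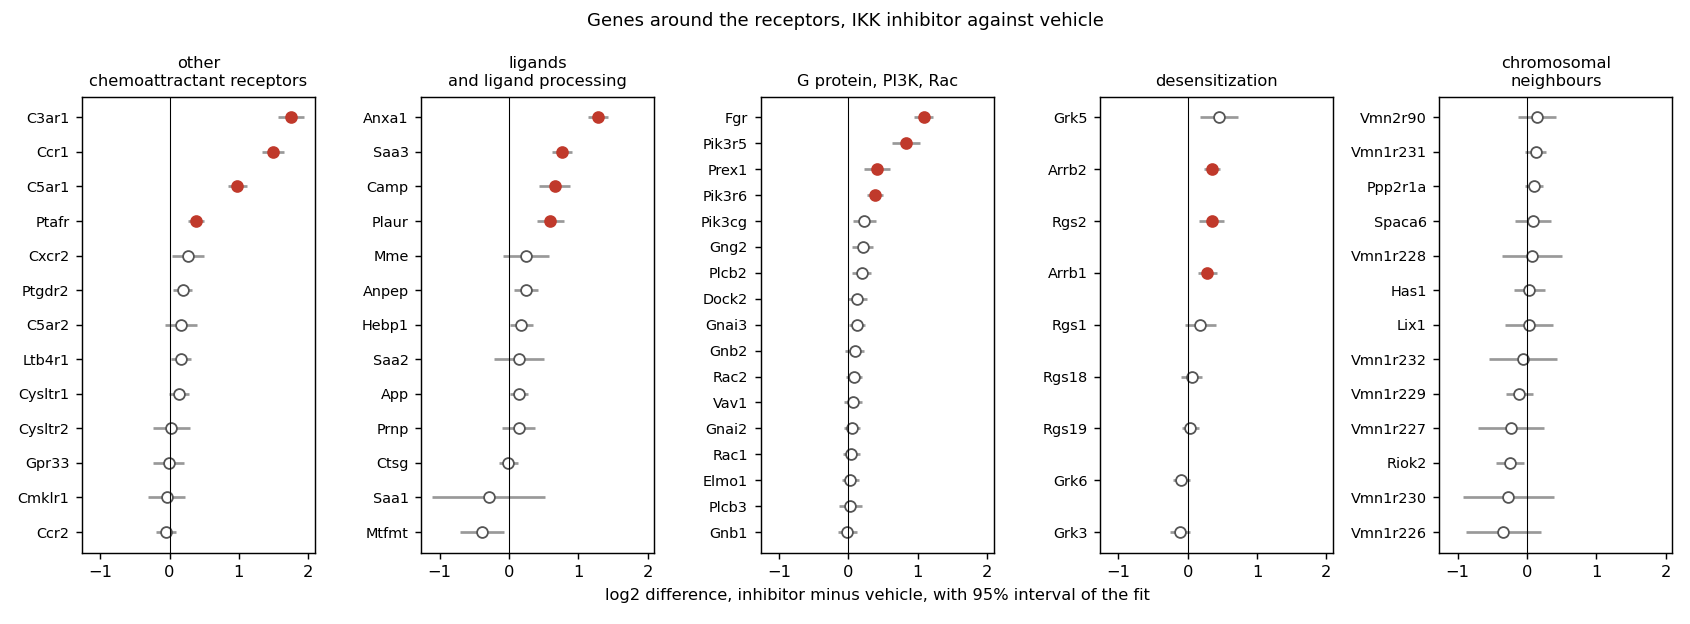
Log2 difference, inhibitor minus vehicle, with its 95% interval, for the measured genes of 5 lists around the receptors; red points passed a limma adjusted p of 0.05 and open points did not. The calls lie on the higher side in 4 lists, led by C3ar1 at 1.75 and Anxa1 at 1.28, and the chromosomal neighbours hold no call.

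Among genes that carry the receptor signal, 2 adaptors of PI3K, a Src-type kinase and a Rac activator rose, and the 5 G protein subunit genes did not pass, of which 2 depended on the setting. Of 17 measured genes for G proteins, phospholipase C, PI3K, Rac activators and Src-type kinases, 4 were higher and none lower. This was 23.5% called, beside 9.21% of all genes. The median log2 difference was 0.13, beside 0.01 for all genes. Among probe sets brighter than the median, of which 4480 of 17756 were called, 8 were higher. With an intensity trend and robust prior, where 4726 of 34450 were called, 9 were higher. In both, the G protein subunit genes Gnai3 (limma adjusted p = 0.0481 and 0.0253) and Gng2 (0.0308 and 0.0414) were called higher. Fgr, a Src-type kinase of myeloid cells, rose from 129 ± 5.11 to 273 ± 6.09 (SD, n = 3 each), by 1.09 ± 0.05 (SE, limma adjusted p = 0.000492). Pik3r5, the adaptor that couples PI3K gamma to G protein subunits, rose from 348 ± 9.38 to 620.1 ± 60.8, by 0.83 ± 0.08 (limma adjusted p = 0.00445). The other PI3K gamma adaptor gene, Pik3r6, rose by 0.39, but its limma adjusted p of 0.00947 was 0.0522 without vehicle replicate 2, 0.0530 without inhibitor replicate 1 and 0.0564 with each array centred on its median. With the replicate number as a block it was 0.0651. Prex1, a Rac activator, rose by 0.41 (limma adjusted p = 0.0338) and passed in none of the 6 fits that left out an array, where the adjusted p was 0.0669 to 0.115. Prex1 was also lost with median centring and with the block. Gnai2, the main inhibitory G protein subunit of leukocytes, was at 3869 ± 76.6 and 4005 ± 38.3 (SD, n = 3 each), a log2 difference of 0.05 (95% interval -0.06 to 0.17).

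Genes that shut off receptors or G protein signals were higher in 3 of 9 cases and lower in none. This was 33.3% called, beside 9.21% of all genes. The median log2 difference was 0.18, beside 0.01 for all genes. The arrestin genes Arrb2 and Arrb1, whose products uncouple and internalize activated receptors, rose by 0.35 and 0.28 on the log2 scale, and Rgs2, which speeds the shut-off of G protein signals, by 0.35. The limma adjusted p was 0.0132 for Arrb2, 0.0389 for Arrb1 and 0.0444 for Rgs2, and with each array centred on its median none passed (0.0890, 0.148 and 0.124). None passed with the replicate number as a block either, and Rgs2 was also lost with quantile normalization and with a floor of 1. Arrb1 and Rgs2 passed in none of the 6 fits that left out an array (0.0574 to 0.120 and 0.0606 to 0.141). Arrb2 passed in 2 of them and not without vehicle replicates 1, 2 and 3 and inhibitor replicate 1 (0.0579, 0.0630, 0.0621 and 0.0622). The receptor kinase genes Grk5 (0.45, limma adjusted p = 0.0717) and Grk6 (-0.09) did not pass as reported. Grk5 was called higher in 5 alternatives, among them the fit per gene and a floor of 64 (limma adjusted p down to 0.0230).

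Many markers of monocytes, macrophages and neutrophils moved in the same samples, most of them higher and some lower. Of 13 monocyte and macrophage markers measured, 10 were higher and none lower, with a median log2 difference of 0.76. This was 76.9% called, beside 9.21% of all genes, of which 5.17% were higher and 4.04% lower. The marker lists too were chosen with earlier results of these data known, so their shares are a description only. Without 1 array 8 to 11 were higher, and 8 with the replicate number as a block. The summed intensity of the 13 lay between 11702 and 12069 with vehicle and between 21105 and 22564 with the inhibitor. Of 14 neutrophil granule and maturation genes, 8 were higher and 3 (Mpo, Prtn3 and Elane) lower (78.6% called). Without vehicle replicates 2 and 3 and inhibitor replicate 3 the higher calls numbered 4, 4 and 5, and the lower calls were 1 or 2 in every fit without 1 array, 2 of them without inhibitor replicate 2. With the block 3 were higher and 1 lower. The sum of the 14 went from between 23850 and 24687 to between 26061 and 27137. Of 9 genes of leukemic progenitors, Kit (-0.54) and Cd34 (-0.30) were called lower (22.2% called). Among the 6 fits without 1 array, Cd34 passed in none and Kit only without inhibitor replicate 2 (limma adjusted p = 0.0373). With each array centred on its median, with a floor of 1 or with the block, neither of them was called. Ptprc (0.19) and Spi1 (0.14) lay on the other side. Neither passed as reported, but Ptprc was called higher in 5 alternatives (adjusted p down to 0.00849) and Spi1 in 1, the intensity trend and robust prior (0.0391), where the list had 2 higher and 2 lower calls. With limma 0 of 5 T cell, 4 B cell and 2 erythroid markers passed, and 1 B cell marker and no other had an unadjusted p under 0.05. In bulk RNA a larger share of cells with a transcript and more of it per cell cannot be told apart. The part of these markers in the values of Fpr-rs4 was not tested.

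The genes whose values ran most nearly parallel to Fpr-rs4 were taken from 9923 genes brighter than the median gene, by Pearson's correlation of log2 values over the 6 arrays. They were Nadk (NAD kinase), Ctsa (the lysosomal protease cathepsin A), Tmem106a, the peroxiredoxin gene Prdx1 and the cytokine gene Tnf, with r between 0.997 and 0.9997. Their log2 differences were far smaller than that of Fpr-rs4, at 0.40 for Nadk, 0.28 for Ctsa, 0.67 for Tmem106a, 0.65 for Prdx1 and 0.42 for Tnf. With 2 groups of 3 such correlations mostly reflect the group difference, and 13.5% of the genes searched had an r above 0.9.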

How the data were processed

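RNA of 6 samples was read on Affymetrix whole-transcript arrays. The deposited values are probe set intensities made by the authors. The submitters' processing notes name Affymetrix Expression Console for this step. Version, summarization and any normalization were not stated. Each value was read as linear, since they ran from 0.71 to 8186. Values below 16 were raised to 16 and log2 was taken.

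The platform annotation gave 1 symbol for 21789 probe sets, several for 1621 and none for 12102; symbols were updated through Entrez numbers (21698 matched). Members were probe sets with a formyl peptide receptor symbol. Each probe set was fitted singly in R 4.3.3 by limma 3.58.1 (lmFit, eBayes, 2-sided, no covariates, inhibitor against vehicle). Adjustment was by Benjamini-Hochberg over the 34450 probe sets. Each listed gene stands for its brightest probe set. The fit was tested on simulated data. The members, lists and floor were chosen with earlier results of these data known. Named were all members, up to 4 called genes per list with the smallest p, 5 fixed genes, the 5 most parallel genes, and others given as examples of genes that did not pass, as neighbours or as markers, chosen after their values were seen. Listed genes without a probe set of 1 symbol are not analysed here. Sequences are from RefSeq (GRCm38.p6), in which all 4 members matched. The table holds 706 rows equal to another row. Alternatives covered scaling, floors, filters, a fit per gene, the replicate number as a block, the prior, array weights and leaving out each array.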

Additional observations from a re-analysis of the deposited data

How the results depend on the processing

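The median log2 difference of the 4 receptor probe sets moved by less than the spread between arrays in all 13 alternatives that kept all 4, from 0.05 to 0.14. Fpr-rs4 moved by more with floors of 32 and 64 and with the log2 of intensity plus 16 (2.19), and stayed above 0 in all 15. Fpr-rs6 was below 0 in 5 of 13 and Fpr-rs3 in 1 of 15. The number of probe sets called was 2533 as reported. It was 614 and 4316 at adjusted p of 0.01 and 0.1, 1117 with each array centred on its median, 3951 with a floor of 64, 4480 above the median intensity, 4726 with an intensity trend and robust prior, 4679 with array weights and 633 with the replicate number as a block. Leaving out 1 array gave 672 to 2278, namely 822, 672 and 724 without vehicle replicates 1, 2 and 3, and 728, 2278 and 1261 without inhibitor replicates 1, 2 and 3. The share called higher rose from 56.1% to between 59.5% and 82.6% in these fits. Of 65 distinct genes in the lists around the receptors, 15 were called, against 9 with median centring, 24 with the trend and robust prior, 7 with the block, and 8 to 12 without 1 array (9 without vehicle replicate 2 or 3, 8 without inhibitor replicate 1). Fgr, Pik3r5, Anxa1, Saa3, C3ar1, C5ar1 and Ccr1 were called in every alternative that tested them. The labels state no pairing, so the fit as reported did not take the numbers to pair samples. Deviations of same-numbered samples correlated at 0.19, 0.09 and -0.00041. The values for replicates 1 and 2 lay above all those of differently numbered samples (-0.15 to 0.07), so a pairing is not excluded. Vehicle values of Fpr-rs4 near the dim end limit its fold.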
